A study of Mus musculus with 2 samples.

Results

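*Cap1* and 5 further genes of actin filament turnover, *Cfl1*, *Pfn1*, *Actb*, *Tmsb4x* and *Coro1a*, were followed in single bone marrow cells (BMCs) of a WT and a Cko mouse. They were taken as a given list, and *Cap1* is on it because it had been seen to be higher in the Cko in these same counts. Its levels are therefore a description, and the question asked was whether other genes of the same function differed with it. All 6 were among the 6000 genes listed in both libraries. The WT counts had 7182 rows and the Cko counts 6735.

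Both mice were of the C57BL6/J strain and 21 days old, and the BMCs came from crushed and collagenase-treated fore- and hindlimbs after lysis of red blood cells. In the Cko, S1P (gene *Mbtps1*, a protease that activates membrane-bound transcription factors) was ablated with *Osx1-GFP::Cre*, a transgene that places a Cre-GFP fusion under the osterix promoter, on a floxed *Mbtps1* background. According to the study's methods the WT carried the floxed alleles without Cre, so the Cre transgene itself differed between the mice together with the deletion. Each genotype was 1 mouse and 1 library, so there is no replicate check, no test was made, and the mouse, the library and the genotype cannot be told apart. All 95% intervals cover counting error only.

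Actin is built into filaments and taken apart again throughout the life of a cell. Cofilin (*Cfl1*) severs old filaments and helps release actin monomers, and cyclase-associated protein (*Cap1*) works with cofilin at the filament end and recharges the released monomers with ATP. Profilin (*Pfn1*) delivers these monomers to growing ends, thymosin beta (*Tmsb4x*) holds a reserve of monomers, and coronin (*Coro1a*) binds filaments and is abundant in blood cells. *Actb* encodes beta-actin itself. Neutrophils, monocytes and lymphocytes depend on this cycle to crawl, engulf particles and change shape.

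On GRCm38 with the GENCODE M21 annotation, *Cap1* lay on the minus strand of chromosome 4 (122859047 to 122886056), with up to 13 exons in a transcript. Its 3′ end shared 129 bases with *Ppt1*, a lysosomal thioesterase gene on the opposite strand. *Cfl1* lay on chromosome 19 (5490455 to 5495201, plus strand), *Pfn1* on chromosome 11 (70651850 to 70654644, minus strand) and *Actb* on chromosome 5 (142903115 to 142906754, minus strand). *Tmsb4x* was on chromosome X (167207093 to 167209315, minus strand) and *Coro1a* on chromosome 7 (126699773 to 126707787, minus strand). *Cfl1* overlapped *Snx32* by 2967 bases and *Coro1a* overlapped *Bola2* by 26 bases, both on the opposite strand. *Cap1* therefore shared no chromosome with the other 5.

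The promoters of *Cap1* and of its partner *Cfl1* are shown because the levels of these genes are compared throughout. They are the 250 bases before the RefSeq start (GRCm38.p6), written 5′ to 3′ on the strand of the gene, at chr4:122886077-122886326 (minus) for *Cap1* and chr19:5490205-5490454 (plus) for *Cfl1*. Capitals mark CCAAT or its reverse complement ATTGG, a box bound by the factor NF-Y.
Cap1: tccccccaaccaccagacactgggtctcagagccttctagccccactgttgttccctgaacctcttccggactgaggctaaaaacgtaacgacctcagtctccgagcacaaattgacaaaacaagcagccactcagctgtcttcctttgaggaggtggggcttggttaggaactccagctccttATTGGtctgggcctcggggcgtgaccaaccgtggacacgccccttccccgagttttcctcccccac
Cfl1: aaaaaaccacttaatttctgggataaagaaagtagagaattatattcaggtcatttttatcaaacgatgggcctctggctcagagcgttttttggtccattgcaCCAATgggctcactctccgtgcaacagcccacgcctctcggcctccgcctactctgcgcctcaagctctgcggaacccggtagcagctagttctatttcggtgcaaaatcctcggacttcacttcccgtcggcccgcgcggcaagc
Each held 1 such match, starting 66 bases before the start in *Cap1* and 146 bases before it in *Cfl1*. The match occurred in 33.8% of 32851 promoter windows of the same length. Neither held TATAAA on either strand, which was found in 12.4% of the windows. The windows of *Pfn1*, *Tmsb4x* and *Coro1a* held neither motif. RefSeq windows were matched for 5 of the 6 genes, and *Actb* was not matched.

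The WT library held 56382459 UMIs (unique molecular identifiers, each marking 1 captured RNA molecule) and the Cko library 34447224 UMIs. After removal of barcodes with fewer than 200 genes there were 6271 WT cells (median 6977 UMIs) and 3662 Cko cells (median 7440 UMIs), and 28 barcodes occurred in both libraries. *Mbtps1* had 31.9 CPM in the WT and 31.2 CPM in the Cko over all cells, where CPM is the UMIs of a gene scaled to a fixed total by all UMIs of the same cells. The kit reads the 3′ end of transcripts, outside the deleted exon, so this value does not check the deletion.

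Cells of both libraries were clustered together without the 6 genes, and clusters were named after marker genes with the ending "-like". The 8 classes described are neutrophil-like (692 WT and 1222 Cko cells, led by *Chil3*, *Ngp* and *Camp* in one cluster and by *Mmp8*, *Retnlg* and *Ly6g* in the other), B cell-like (776 and 544, led by *Igll1*, *Vpreb1* and *Vpreb3*), erythroid-like (3597 and 577), T/NK-like (19 and 62), macrophage-like (51 and 9) and stromal-like (30 and 18), and, from a finer clustering, monocyte-like (330 and 553, led by *Fn1* and *Wfdc17*) and granulocyte-monocyte progenitor-like (590 and 484, led by *Mpo* and *Ctsg*). The T/NK-like, macrophage-like and stromal-like classes had fewer than 50 cells in at least 1 library.

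*Cap1* was higher in the Cko in each of the 8 classes, by 3.78-fold to 6.20-fold, and no interval of these ratios included 1. Among neutrophil-like cells *Cap1* had 39.0 CPM in the WT (176 UMIs, 95% Poisson interval 33.5 to 45.2) and 217 CPM in the Cko (1881 UMIs, 207 to 227). The Cko/WT ratio was 5.56 (4.76 to 6.52), rank 5 from the highest among the genes tested. Genes listed in only 1 library were not tested. The 4377 genes tested were listed in both and had at least 100 UMIs over both libraries in these cells. A ratio of at least 2 was found for 1.42% of these genes and a ratio of at most 0.5 for 0.982%. Because this contrast chose *Cap1*, its rank is given as a description.

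Monocyte-like cells had 35.4 CPM of *Cap1* in the WT (75 UMIs) and 169 CPM in the Cko (641 UMIs), a ratio of 4.76 (3.74 to 6.13). In granulocyte-monocyte progenitor-like cells the level was 16.1 CPM (119 UMIs) against 72.6 CPM (571 UMIs), a ratio of 4.51 (3.69 to 5.54). B cell-like cells, which belong to another lineage, had 16.6 CPM (90 UMIs) and 84.8 CPM (421 UMIs), a ratio of 5.10 (4.05 to 6.48). A ratio of at least 2 was found for 1.70% of the genes tested in monocyte-like cells, 0.772% in progenitor-like cells and 0.642% in B cell-like cells, and one of at most 0.5 for 1.45%, 0.869% and 0.788%. *Cap1* ranked 7 of 4288, 1 of 5179 and 2 of 4825 genes by this ratio.

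Erythroid-like cells had the lowest *Cap1* level in both libraries, 3.72 CPM in the WT (129 UMIs) and 14.0 CPM in the Cko (100 UMIs), and also the lowest ratio (3.78, 2.88 to 4.95). Here 2.68% of genes had a ratio of at least 2 and 1.16% one of at most 0.5. A finer cluster of 198 WT and 29 Cko cells within this class, led by *Acp5*, *Ly6d*, *Retnlg* and *Mmp9* beside hemoglobin genes, contributed 29 of the WT and 32 of the Cko UMIs at 14.9 and 76.1 CPM. In the most hemoglobin-rich cluster, led by *Bpgm*, 5 UMIs were found in each library, and the ratio of 2.64 (0.607 to 11.5) could not be told from 1.

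The remaining 3 classes held few *Cap1* UMIs. T/NK-like cells had 3 (WT) and 45 (Cko), at 24.99 and 142 CPM (ratio 5.66, 1.82 to 28.5), macrophage-like cells had 8 and 6 (20.9 and 129 CPM, ratio 6.20, 1.77 to 20.4) and stromal-like cells had 3 and 8 (14.3 and 63.8 CPM, ratio 4.46, 1.07 to 26.1). Their intervals span all the ratios of the larger classes. *Cap1* itself was below the limit of 100 UMIs in all 3. Among the genes that reached it, a ratio of at least 2 was found for 6.82% of genes in T/NK-like, 6.82% in macrophage-like and 5.68% in stromal-like cells, and one of at most 0.5 for 8.71%, 11.2% and 5.89%.

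Hemoglobin transcripts, which mark erythroid RNA, also differed between the libraries outside the erythroid-like class. *Hba-a1*, an alpha-globin gene, had 1150 CPM in the WT against 209 in the Cko in neutrophil-like cells, 3653 against 825 in monocyte-like, 2390 against 1266 in progenitor-like, 2818 against 358 in B cell-like and 3899 against 201 in T/NK-like cells. It went the other way in stromal-like cells (2695 against 6647 CPM). Hemoglobin genes gave 1% or more of the UMIs in 72.5% of WT and 22.2% of Cko macrophage-like cells. When cells with such a share were left out, the log2 ratio of *Cap1* was 2.46 in neutrophil-like, 2.27 in monocyte-like and 2.31 in B cell-like cells, against 2.47, 2.25 and 2.35 with all cells. In neutrophil-like cells *Actb* was then -0.65 and *Pfn1* 0.50, against -0.66 and 0.51. The cells left out were few. They made up 2.58% of WT and 0.551% of Cko B cell-like cells, and 3.33% and 0.362% of monocyte-like cells. In the neutrophil-like cluster led by *Chil3* they were 0.769% and 0%, and in that led by *Mmp8* 2.91% and 0.545%. Leaving them out could therefore hardly move these ratios, and the part of hemoglobin in the cells kept was not tested. For the T/NK-like, macrophage-like and stromal-like ratios the part of hemoglobin was not tested.

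**Figure D1:**
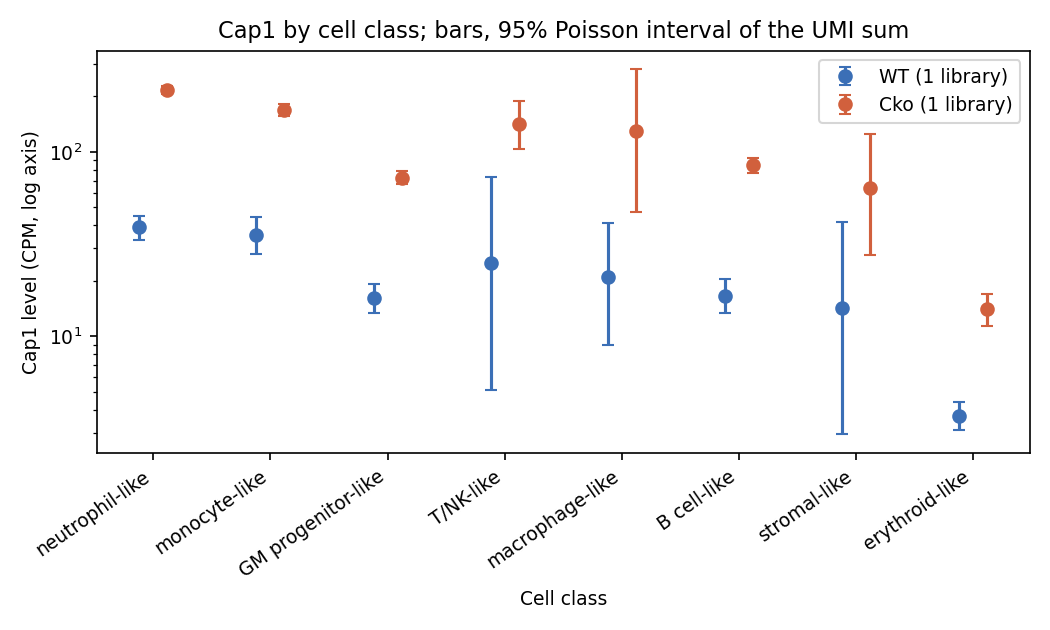
*Cap1* level (CPM, log axis) in the 8 classes (horizontal axis), WT blue and Cko orange, 1 library each, with 95% Poisson intervals as bars. The Cko point lies above the WT point in each class, from 3.72 against 14.0 CPM in erythroid-like cells to 39.0 against 217 CPM in neutrophil-like cells.

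The order of the classes by *Cap1* level was the same in both libraries: neutrophil-like, monocyte-like, T/NK-like, macrophage-like, B cell-like, progenitor-like, stromal-like and erythroid-like. In the WT the neutrophil-like and monocyte-like intervals overlapped (33.5 to 45.2 and 27.9 to 44.4 CPM), whereas in the Cko they did not (207 to 227 and 156 to 182 CPM). B cell-like and progenitor-like cells overlapped in the WT (13.4 to 20.4 and 13.3 to 19.3 CPM) and in the Cko (76.9 to 93.3 and 66.7 to 78.8 CPM). The 3 small classes overlapped with their neighbours in both libraries, except that stromal-like cells lay above erythroid-like cells (11.4 to 17.1 CPM) in the Cko, at 27.5 to 126 CPM.

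The difference was seen in the number of cells with a *Cap1* UMI as well as in the sums. After thinning each cell to 3000 UMIs, 10.5% of WT neutrophil-like cells (73 of 692, exact binomial interval 8.36 to 13.1%) and 50.1% of Cko cells (612 of 1222, 47.2 to 52.9%) had at least 1 *Cap1* UMI. Without thinning the shares were 21.2% and 75.04%, at median depths of 5880 and 6012 UMIs. Within this class no WT cell had more than 3 *Cap1* UMIs, while the highest Cko cell had 8. Counts of 2 or more were found in 4.05% of WT and 43.8% of Cko cells.

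The thinned share was 9.09% and 43.8% in monocyte-like cells, 6.57% and 28.3% in B cell-like cells and 6.27% and 23.8% in progenitor-like cells, each time WT first. Erythroid-like cells, at median depths of 7108 and 9048 UMIs, gave 0.973% (0.679 to 1.35%) and 2.95% (1.73 to 4.68%). This was the lowest share in each library, and all the other large classes were above it in their own library. The part of free RNA in these shares was not tested.

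**Figure D2:**
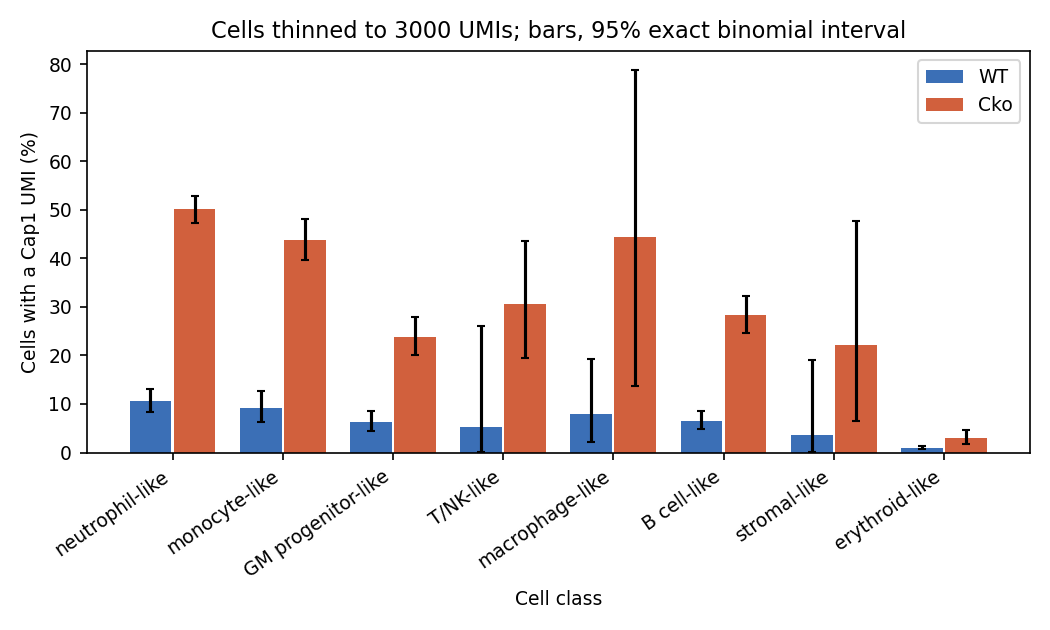
Share of cells (%) with at least 1 *Cap1* UMI after thinning each cell to 3000 UMIs, by class, WT blue and Cko orange, with 95% exact binomial intervals. In neutrophil-like cells the share is 10.5% (WT) against 50.1% (Cko), and erythroid-like cells are lowest in both.

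None of the other 5 genes differed by as much as *Cap1*. By the counting interval *Pfn1* was higher in the Cko in 7 of 8 classes and *Coro1a* in 5. In neutrophil-like cells the median log2 ratio of the other 5 genes was 0.069, against 2.47 for *Cap1* and -0.067 for all genes tested. None of the 5 passed 2-fold in either direction. Of all genes tested, 1.42% had a ratio of at least 2 and 0.982% one of at most 0.5. All 6 genes passed the limit of 100 UMIs in the 5 large classes. Of the 6, only *Cap1* was past 2-fold in these classes. Over them, 0.642% to 2.68% of all genes tested were at least 2-fold higher and 0.788% to 1.45% at most 0.5-fold. At such shares a count of 0 among 5 genes is no trait of these genes. The median over all genes tested was -0.11 in B cell-like, erythroid-like and monocyte-like cells, -0.12 in T/NK-like and 0.17 in macrophage-like cells, and ratios close to 1 in these classes are best read against it.

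*Cfl1*, the direct partner of *Cap1*, was nearly level. Neutrophil-like cells had 1368 CPM in the WT and 1435 CPM in the Cko (ratio 1.05, 1.02 to 1.08), and over the 5 large classes the ratio lay between 0.883 in monocyte-like and 1.05 in neutrophil-like cells. B cell-like cells had 1430 and 1461 CPM (ratio 1.02, 0.989 to 1.05). Its largest departure was in T/NK-like cells, with 2216 CPM in the 19 WT cells and 1544 CPM in the 62 Cko cells (ratio 0.697, 0.599 to 0.812).

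*Pfn1* was modestly higher in the Cko in 7 of 8 classes by the counting interval. Neutrophil-like cells held 1556 CPM (WT) and 2215 CPM (Cko), a ratio of 1.42 (1.39 to 1.46), and 95.2% of the genes tested had a lower ratio. The ratio was 1.24 in erythroid-like, 1.20 in progenitor-like, 1.18 in B cell-like and 1.05 in monocyte-like cells. In T/NK-like cells (2183 and 2268 CPM) the interval of the ratio was 0.901 to 1.20.

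*Actb* went the other way and was lower in the Cko in 6 of 8 classes. Neutrophil-like cells had 4151 CPM in the WT and 2622 CPM in the Cko (ratio 0.632, 0.619 to 0.644), with 3.40% of genes tested at a lower ratio. Monocyte-like cells, where the WT level was highest, had 5481 and 3113 CPM (ratio 0.568, 0.554 to 0.583). The ratio was 0.590 in progenitor-like, 0.626 in T/NK-like, 0.650 in erythroid-like and 0.714 in B cell-like cells. Macrophage-like cells (3363 and 3426 CPM, 0.859 to 1.20) and stromal-like cells (2519 and 2694 CPM, 0.930 to 1.23) had intervals that included 1.

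*Tmsb4x* in neutrophil-like cells had 22497 CPM in the WT and 20767 CPM in the Cko (ratio 0.923, 0.916 to 0.930). This direction depended on how cells were classed: the log2 ratio was -0.12, but 0.093 with each library clustered on its own and 0.072 without called doublets. The ratio was 0.823 in progenitor-like, 0.892 in B cell-like and 0.900 in monocyte-like cells, and 1.11 in erythroid-like cells. It was higher in macrophage-like cells, with 11697 CPM in 51 WT cells and 21204 CPM in 9 Cko cells (ratio 1.81, 1.69 to 1.94).

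*Coro1a* was slightly higher in the Cko neutrophil-like cells, with 994 CPM in the WT and 1180 CPM in the Cko (ratio 1.19, 1.15 to 1.23). The ratio was 1.16 in monocyte-like, 1.14 in B cell-like, 1.02 in progenitor-like and 1.37 in erythroid-like cells, where the level was only 38.5 and 53.0 CPM. It passed 2-fold in stromal-like cells alone, on 15 WT and 26 Cko UMIs (71.6 and 207 CPM, ratio 2.90, 1.48 to 5.88), which is below the limit of 100 UMIs.

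**Figure D3:**
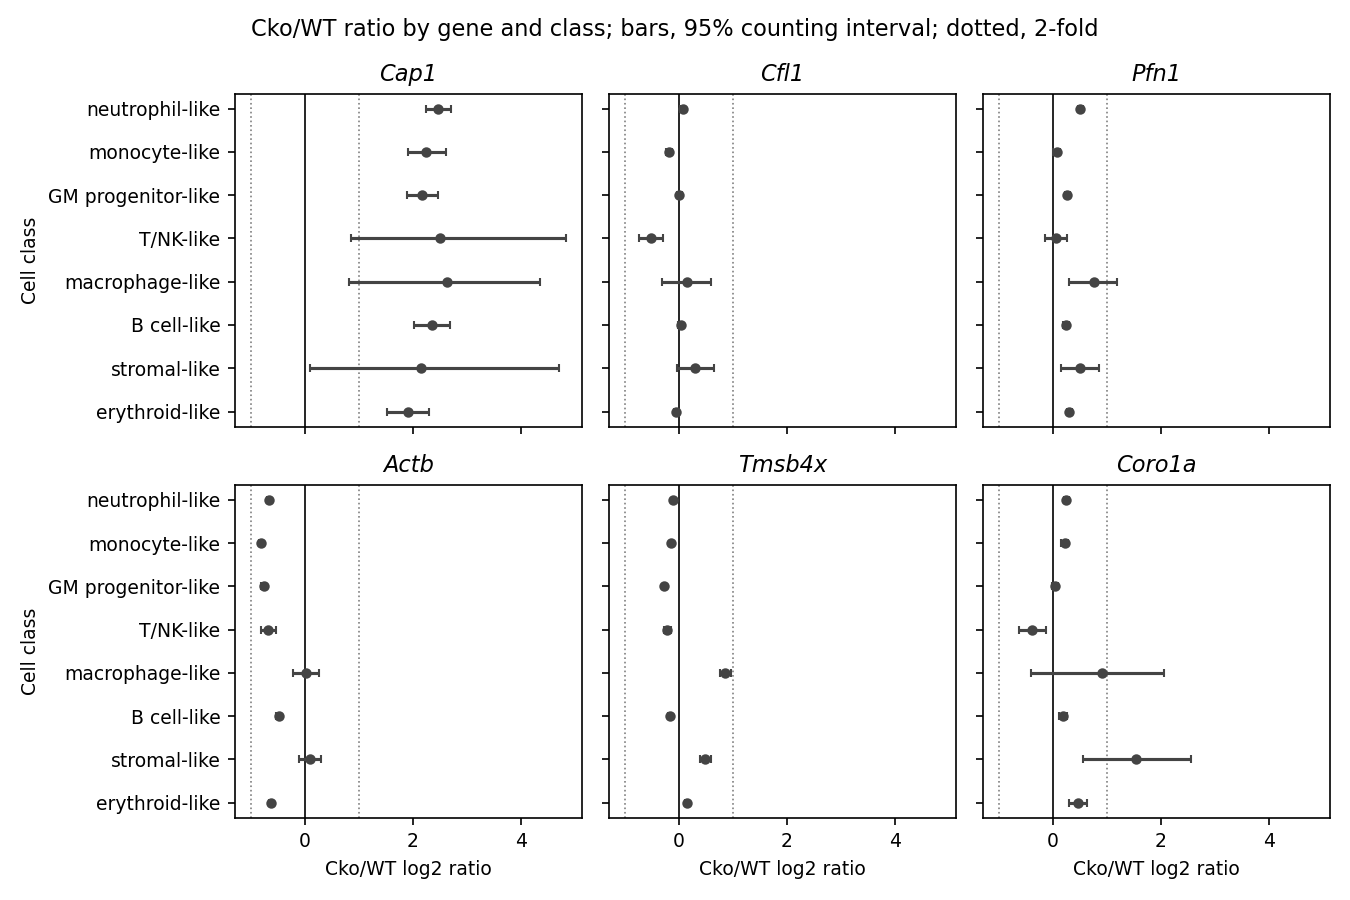
Cko/WT log2 ratio (horizontal axis) of each of the 6 genes (panels) in the 8 classes (vertical axis), with 95% counting intervals. The solid line is 0 and dotted lines are 2-fold. *Cap1* lies between 1.92 and 2.63 in all classes, and *Actb* lies below 0 in 6 of them.

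The share of *Cap1* among the UMIs of the 6 genes does not depend on the total used for CPM. It ranged over the 8 classes from 0.0736% to 0.182% in the WT and from 0.389% to 1.01% in the Cko. The ranges of these point values did not overlap, but intervals of small classes did. In stromal-like cells they were 0.0240 to 0.340% in the WT (3 UMIs) and 0.168 to 0.765% in the Cko (8 UMIs). In neutrophil-like cells it was 0.128% and 0.763%, while the share of *Actb* was 13.6% and 9.22%.

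Ratios taken over all cells without regard to class were different. *Cap1* was then 9.82-fold, *Coro1a* 2.49-fold, *Tmsb4x* 1.99-fold, *Pfn1* 1.84-fold and *Cfl1* 1.29-fold higher in the Cko, and *Actb* was at 0.937-fold. Erythroid-like cells, the class with the lowest level of each of the 6 genes in both libraries, numbered 3597 of 6271 cells in the WT and 577 of 3662 in the Cko. In such whole-library sums, fewer cells of a class and less RNA per cell cannot be told apart.

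**Figure D4:**
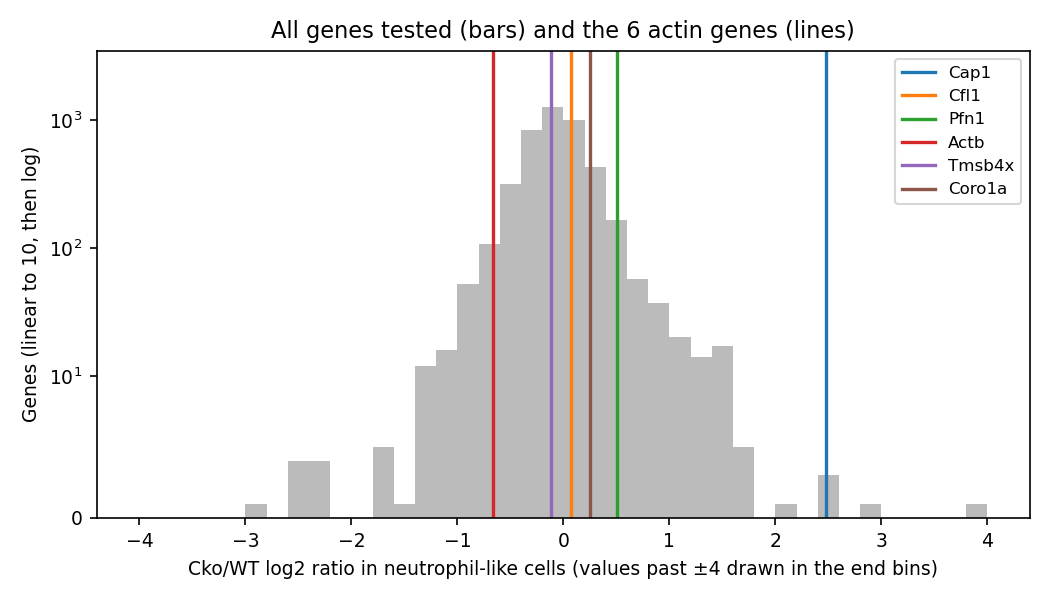
Number of genes (vertical axis, linear to 10 and then logarithmic) by Cko/WT log2 ratio in neutrophil-like cells, for the 4377 genes tested, with the 6 genes as coloured lines. *Tmsb4x* (-0.12), *Cfl1* (0.069) and *Coro1a* (0.25) lie between the 5th and 95th percentiles (-0.59 and 0.50), *Actb* (-0.66) lies below and *Pfn1* (0.51) just above this range, and *Cap1* (2.47) lies far to the right.

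Neutrophil-like cells of the Cko were further along a maturation score built from late genes such as *Retnlg* and *Mmp8* against early genes such as *Camp* and *Ngp*. The score used raw UMI sums, not scaled to depth, with a constant added to each. Where late UMIs are few, the depth of a cell therefore enters its score. Of the cells in the least, middle and most mature bin, 302, 261 and 129 were WT and 336, 377 and 509 were Cko. *Cap1* was compared within these bins for this reason. It was 32.3 CPM in the WT and 170 CPM in the Cko in the least mature bin (ratio 5.27, 4.14 to 6.81), 40.5 and 193 CPM in the middle bin (4.75, 3.67 to 6.24) and 61.3 and 304 CPM in the most mature bin (4.95, 3.54 to 7.12). The intervals of the ratios overlapped, and the level was highest in the most mature bin of both libraries.

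*Actb* behaved differently along the same score. Its WT level was 4177, 4057 and 4310 CPM from the least to the most mature bin, whereas in the Cko it was 2108, 2612 and 3283 CPM. The ratio was 0.505 (0.489 to 0.521), 0.644 (0.623 to 0.666) and 0.762 (0.729 to 0.797), and these intervals did not overlap. *Pfn1* had ratios of 1.38, 1.33 and 1.54, *Coro1a* of 1.11, 1.16 and 1.24, *Cfl1* of 1.05, 1.06 and 1.02, and *Tmsb4x* of 0.873, 0.869 and 0.942.

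**Figure D5:**
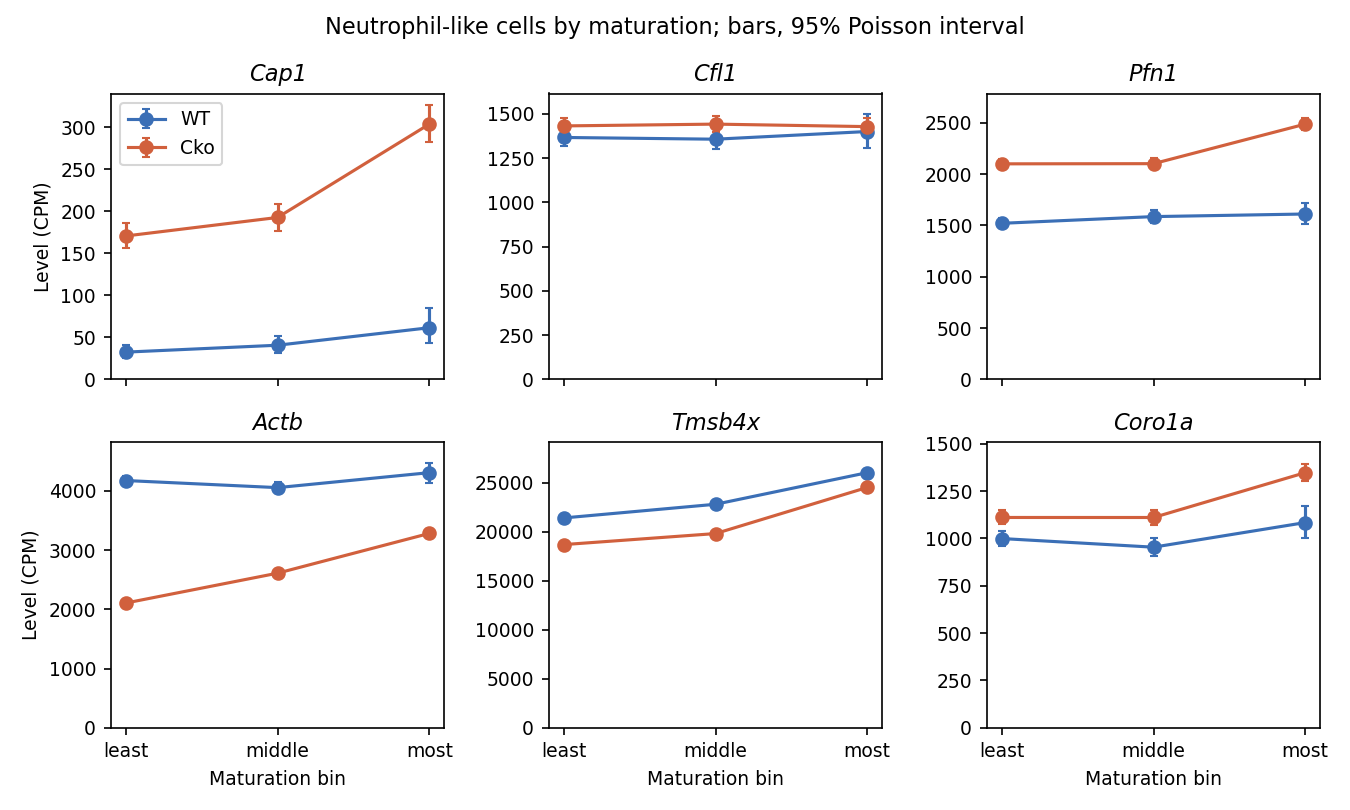
Level (CPM, from 0) of the 6 genes (panels) in neutrophil-like cells of the least, middle and most mature bin, WT blue and Cko orange, with 95% Poisson intervals. *Cap1* is 170, 193 and 304 CPM in the Cko and 32.3, 40.5 and 61.3 CPM in the WT, and the *Actb* lines approach each other.

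The comparison was widened to a list of 77 other genes that bind, nucleate, cap or move actin, of which 62 were listed in both libraries. At least 100 UMIs were found for 57 of these in neutrophil-like cells, and 0 of the 57 were past 2-fold in either direction, beside 1.42% and 0.982% of all genes tested. The count depended on how cells were classed: it was 1 (*Tpm4*) with at least 16 clusters and 2 (*Tpm4* and *Capg*) without called doublets. Their median log2 ratio was 0.084. The counting interval of the ratio lay above 1 for 22 and below 1 for 4 of the 57, whereas over all genes tested it did so for 13.1% and 21.6%. The cluster led by *Chil3* did not have this tilt, with 8 above and 7 below of 56. In the cluster led by *Mmp8* it was 14 and 2 of 49. Genes with more UMIs have narrower intervals, and the list and all genes were not matched for UMIs.

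The highest ratios in this list were those of *Fmnl1*, a formin that elongates filaments (28.6 and 49.2 CPM, ratio 1.72, 1.41 to 2.11), *Tpm4*, a tropomyosin (8.65 and 14.4 CPM, 1.67, 1.16 to 2.45) and *Capg*, a filament-capping protein (147 and 209 CPM, 1.43, 1.31 to 1.56). The lowest were *Tmsb10*, a relative of *Tmsb4x* (314 and 233 CPM, 0.742, 0.693 to 0.794), *Rdx*, which links filaments to the membrane (76.7 and 60.1 CPM, 0.783, 0.682 to 0.900) and *Actn4*, which crosslinks filaments (48.3 and 41.5 CPM, 0.859, 0.724 to 1.02). These values are not firm. *Tpm4* reached ratios of 2.09 to 3.53 in 5 other ways of classing the cells, and its log2 ratio was -0.71 in the middle maturation bin alone. In that bin the log2 ratio was 0.27 for *Fmnl1*, 0.017 for *Capg*, -0.060 for *Rdx* and 0.084 for *Actn4*, and each of these intervals, like that of *Tpm4*, included 0. *Tmsb10* was at -0.49 there, but at -0.11 (-0.23 to 0.0079) with at least 16 clusters.

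In the other large classes, 0 of 58 list genes in B cell-like, 0 of 57 in monocyte-like and 0 of 60 in progenitor-like cells passed 2-fold, where 0.642%, 1.70% and 0.772% of all genes tested were at least 2-fold higher and 0.788%, 1.45% and 0.869% at most 0.5-fold. In erythroid-like cells 2 of 61 were at least 2-fold higher, a share near the 2.68% of all genes tested there. They were *Arpc1b*, a subunit of the Arp2/3 complex that branches filaments (51.2 and 108 CPM, ratio 2.11, 1.94 to 2.30) and *Capg* (9.82 and 20.9 CPM, 2.13, 1.75 to 2.59). These 2 were named after their values were seen. In macrophage-like cells, on 9 Cko cells, 3 of 12 were at least 2-fold higher, beside 6.82% of all genes tested. The median log2 ratio of the 12 was 0.75, against 0.17 for all genes. In T/NK-like cells 0 of 19 and in stromal-like cells 0 of 8 passed 2-fold. A finer cluster left unnamed (160 WT and 156 Cko cells) had 6 of 51 list genes at 0.5-fold or lower. At that limit it also had 1 of the other 5 genes. The share of all genes is not given there, so these counts cannot be weighed.

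The genes whose pattern was most like that of *Cap1* were sought over 14 points, the 7 clusters with at least 50 cells in each library taken in both libraries. Pearson's r of log2(CPM + 10) was highest for *Tsc22d3* (0.94), *Reep3* (0.90), *Pdlim2* (0.90), *Plp2* (0.89) and *Fmnl1* (0.87) of 5130 genes. The points of each library share that library and its depth, so r is a description. Among the other 5 genes r was 0.83 for *Coro1a*, 0.81 for *Tmsb4x*, 0.73 for *Pfn1*, 0.62 for *Actb* and 0.58 for *Cfl1*, at ranks 50, 112, 391, 694 and 780. Differences between the libraries enter r, so the ratios of the 5 genes most like *Cap1* are partly fixed by how they were chosen. In neutrophil-like cells the Cko/WT ratio was 1.57 for *Tsc22d3*, a glucocorticoid-induced gene (60.5 and 95.01 CPM). It was 1.49 for *Reep3*, 1.44 for *Pdlim2*, 1.46 for *Plp2* and 1.72 for *Fmnl1*. In B cell-like cells the ratios were, in the same order, 2.91 (19.6 and 57.0 CPM), 1.04, 1.69, 1.26 and 0.826.

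*Ppt1* and *Ppie*, the only other genes within 250 kb of *Cap1* listed in both libraries, had no difference of its size. *Ppt1*, which overlaps its 3′ end on the opposite strand, had 23.1 CPM in the WT and 20.5 CPM in the Cko in neutrophil-like cells (ratio 0.890, 0.695 to 1.15) and 50.6 and 63.8 CPM in B cell-like cells (1.26, 1.07 to 1.49). *Ppie* had ratios of 0.887 (0.621 to 1.28) and 0.995 (0.853 to 1.16) in these classes, the first on 51 WT and 87 Cko UMIs.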

How the data were processed

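The authors deposited integer UMI counts for each gene and barcode, not normalized, from the Chromium Single Cell 3′ kit. The submitters' processing notes name Cell Ranger and GRCm38, and the Cell Ranger version is not given in the sources used here. The authors' total row and sum column were dropped. Every listed row reached at least 4 UMIs in a cell, so an unlisted gene need not be absent. The ratios tested and the joint clustering were limited to genes listed in both libraries. In naming clusters, calling doublets and the maturation score, a gene unlisted in a library counted as 0. Both rows of a symbol repeated in the WT were left out of the tests.

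Cells needed at least 200 genes. Scrublet (scanpy 1.11.5, expected rate 5%) called 122 WT and 38 Cko cells as doublets, which stayed in. Both libraries were clustered together in Seurat 5.3.0 (R 4.3.3) on 2000 variable genes without the 6 genes and the *Stfa* family, 20 principal components and 20 neighbours, with mitochondrial and ribosomal shares regressed out. The lowest resolution with at least 10 clusters gave 11. It left monocytes and progenitors in 1 unnamed cluster, so their values come from the lowest resolution with at least 16 clusters, planned as an alternative. A marker counted at 25% of cells and a fold of 1.5 (0.1 added per 10000 UMIs). A name needed 3 markers, the most among 25 leading genes, and more than any other type among the top 10.

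UMIs were summed per class and scaled to CPM. Intervals are exact Poisson, binomial or conditional. Genes listed in both libraries and with at least 100 UMIs over both in a class were compared at limits of 2-fold and 0.5-fold. Intervals of the ratios were tested on simulated Poisson counts, the model that they assume. The simulation held no spread between cells or mice, so it says nothing about that spread. Named genes were the 6 genes, the 3 highest and 3 lowest of the actin list, the 5 most like *Cap1* among genes with at least 1000 UMIs, and *Mbtps1*. The genes, lists and markers were chosen with earlier results of these data known. Sums and intervals were computed with scipy 1.17.1, pandas 2.3.3 and numpy 2.4.6 in Python 3.11.15, and plots with matplotlib 3.10.9.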

Additional observations from a re-analysis of the deposited data

Results flagged for a closer look

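For 3 of the genes the interval of the Cko/WT log2 ratio lay above 0 in some classes and below 0 in others. These differences between classes were not tested, because there was 1 library per genotype. *Cfl1* was 0.069 in neutrophil-like cells, but -0.053 in erythroid-like, -0.18 in monocyte-like and -0.52 in T/NK-like cells. *Tmsb4x* was 0.15 in erythroid-like, 0.49 in stromal-like and 0.86 in macrophage-like cells, but -0.12 in neutrophil-like, -0.15 in monocyte-like, -0.16 in B cell-like, -0.21 in T/NK-like and -0.28 in progenitor-like cells. *Coro1a* was -0.38 in T/NK-like cells, but 0.19 in B cell-like, 0.21 in monocyte-like, 0.25 in neutrophil-like, 0.46 in erythroid-like and 1.53 in stromal-like cells. For *Cfl1* and *Tmsb4x* opposite directions were found between large classes, whereas for *Coro1a* the lower value rests on 19 WT and 62 Cko T/NK-like cells.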

How the results depend on the processing

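The log2 ratio of *Cap1* in neutrophil-like cells was 2.47 and lay between 2.25 and 2.74 over 12 alternatives. It moved outside its counting interval without called doublets (2.74) and in the middle maturation bin alone (2.25). In monocyte-like cells it was 2.25 and lay between 1.99 and 2.87, and it moved with each library clustered on its own (2.87). In B cell-like cells it was 2.35 (2.31 to 2.46 over 11 alternatives). The median of the other 5 genes in neutrophil-like cells, 0.069, moved to 0.19 with each library clustered on its own, 0.13 with classes from marker scores, 0.12 without doublets and 0.14 when centred on the median of all genes. The count of 0 list genes past 2-fold became 1 (*Tpm4*) with the 6 genes and the *Stfa* family kept in the clustering, with at least 16 clusters, with marker scores and with at least 500 genes per barcode. It became 2 (*Tpm4* and *Capg*) without doublets and 2 (*Fmnl1* and *Tpm4*) at a 1.5-fold limit. The causes of these moves were not tested. The log2 ratio of *Cap1* did not change sign in any alternative. Smaller ratios in neutrophil-like cells did. *Tmsb4x* went from -0.12 to 0.093 with each library clustered on its own. In the middle maturation bin alone *Actn4* went from -0.22 to 0.084 and *Tpm4* from 0.74 to -0.71. Of 143 values for single genes, 99 stayed within their counting interval and 44 moved. No paired analysis was possible because each genotype had 1 library. Leaving out a replicate was not possible for the same reason. Depth limits the T/NK-like, macrophage-like and stromal-like values for *Cap1*, which rest on 3 to 45 UMIs.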

Other observations

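Few genes shared the pattern of *Cap1* across lineages. In 4 groups, neutrophil-like, B cell-like and erythroid-like cells and the unnamed cluster of monocytes and progenitors, 3957 genes were tested in all, and 12 (0.303%) were at least 2-fold higher and 2 (0.0505%) at 0.5-fold or lower in the Cko in each. *Cap1* had the highest of the lowest ratios (3.78), with 4.95 in the unnamed cluster. Of the 12 genes 7 were annotated as processed pseudogenes, with ratios of 2.05 to 3.27, among them *Rps18-ps3* (3.02 to 3.27) and *Rps10-ps1* (2.84 to 3.19). Counts of such genes are uncertain, because their reads can be split with near-identical parent genes. The others included *BC100530* of the *Stfa* family (2.31 to 5.75) and *Gdpd3*, a phosphodiesterase gene (2.33 to 2.94). According to the study only neutrophil clusters expressed the *Stfa* family. Neutrophil-like cells were 692 of 6271 cells in the WT and 1222 of 3662 in the Cko. For *BC100530*, the part of free neutrophil RNA in the ratios of the other groups was not tested. *Apobec3*, a cytidine deaminase gene, was lower at 0.177 to 0.317, and the noncoding *Gm26917* at 0.132 to 0.290. These genes were named after their values were seen.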
